A study of Mus musculus and Homo sapiens with 15 samples.

Results

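The 10 genes described here encode the cytotoxic granule proteins Gzma, Gzmb, Gzmk, Prf1 and Nkg7, the natural killer (NK) cell receptors Klrd1, Klrk1 and Ncr1, the transcription factor Eomes and the cytokine Ifng. They were chosen by symbol, and each symbol was found in both mouse tables, so the set comprised 10 of 52340 genes in the table of W/W mice and 10 of 56691 in the table of grafted tumours. Transcript levels were measured by RNA sequencing of whole tumour tissue. The study compared tumours with and without arsenic trioxide (ATO), a compound used against acute promyelocytic leukaemia.

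W/W mice are homozygous for the p53 R282W mutation, and all 9 W/W libraries came from thymus tumour tissue of such mice with T-lymphomas, taken when 150 days had passed since birth. The control group was given water (n = 3). The other W/W groups were given ATO and are divided in the labels by tumour status into progression (n = 3, "progressing") and regression (n = 3, "regressing"). Because tumour status defines these ATO groups, treatment and outcome cannot be told apart when either is set against water. The graft groups are described as a CDX model in C57 mice with the genotype label WT, and 2 of these tumours were from mice given phosphate-buffered saline (PBS) and 2 from mice given ATO. The labels used here do not name the grafted cells, the route or dose of ATO, or the age of the graft hosts. They also do not say whether each library came from a separate mouse. The p-values therefore measure only the spread between these libraries, which may not be the spread between mice.

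Cytotoxic lymphocytes, chiefly NK cells and effector CD8 T cells, kill by releasing granules in which perforin (Prf1) opens the target membrane and granzymes enter and cleave proteins. Receptors such as NKG2D (Klrk1), NKp46 (Ncr1) and CD94 (Klrd1) sense ligands on target cells, and Eomes is a T-box transcription factor of NK and effector T cells. Interferon-gamma (Ifng) is the cytokine these cells secrete to act on neighbouring cells. In the thymus such cells are a minority beside developing T cells. In bulk tissue, fewer cells of a type and less RNA per cell cannot be told apart.

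Total counts ranged from 12800367 to 17550594 per W/W library and from 12922147 to 15637644 per graft library. CPM below is the depth-scaled count on library sizes after TMM scaling, a correction for RNA composition. The TMM factor was 0.747 in water replicate 2 and 0.794 in progressing replicate 2, against 1.03 to 1.16 in the other W/W libraries and 0.916 to 1.09 in the grafts. The 9 T cell lineage genes summed to 1300 CPM or more in every library, which does not check the T-lymphoma label, since developing T cells of the thymus carry them too. In water replicates 1, 2 and 3 they summed to 1300, 1990 and 1740 CPM, below the B cell markers in replicates 1 and 2. The 7 B cell markers summed to 1440, 3520 and 95.3 CPM in water replicates 1, 2 and 3, to 14.8 to 44.5 CPM in progressing and to 116 to 171 CPM in regressing tumours. Water replicate 2 was therefore both highest in B cell transcripts and, as shown next, highest in most of the 10 genes, so several results against water are also given without it.

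Promoter sequences are shown for the 4 granule genes whose patterns are set against each other below: the neighbours Gzma and Gzmk, and Nkg7 and Gzmb, which were low together in progressing tumours. They are RefSeq promoters on GRCm38.p6, each from 250 bases before to 50 after the transcription start, written 5′ to 3′ on the gene's strand. Capitals mark a match to a motif core on either strand. The T-box core TCACACC is of the class bound by Eomes and reads GGTGTGA when it lies on the opposite strand. The RUNX core ACCACA reads TGTGGT when it does so.
Gzma, chr13:113100932-113101231, minus strand: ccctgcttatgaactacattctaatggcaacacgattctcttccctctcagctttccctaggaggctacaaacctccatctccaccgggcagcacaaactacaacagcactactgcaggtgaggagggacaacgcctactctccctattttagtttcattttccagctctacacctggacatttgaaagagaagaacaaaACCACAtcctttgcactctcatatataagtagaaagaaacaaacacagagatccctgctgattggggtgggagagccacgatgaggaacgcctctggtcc
Gzmk, chr13:113180916-113181215, minus strand: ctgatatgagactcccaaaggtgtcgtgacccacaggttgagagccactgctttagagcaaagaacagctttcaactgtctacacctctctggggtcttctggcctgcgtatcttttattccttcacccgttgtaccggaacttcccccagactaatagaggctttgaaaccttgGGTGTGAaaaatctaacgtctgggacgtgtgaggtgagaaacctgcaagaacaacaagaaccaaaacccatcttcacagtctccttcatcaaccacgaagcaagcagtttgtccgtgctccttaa
Nkg7, chr7:43436888-43437187, plus strand: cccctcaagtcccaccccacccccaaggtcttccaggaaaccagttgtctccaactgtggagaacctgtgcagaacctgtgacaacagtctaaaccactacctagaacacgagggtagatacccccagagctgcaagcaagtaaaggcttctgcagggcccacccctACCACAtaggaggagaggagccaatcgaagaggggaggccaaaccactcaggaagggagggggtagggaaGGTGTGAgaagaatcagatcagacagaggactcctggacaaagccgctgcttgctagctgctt
Gzmb, chr14:56262285-56262584, minus strand: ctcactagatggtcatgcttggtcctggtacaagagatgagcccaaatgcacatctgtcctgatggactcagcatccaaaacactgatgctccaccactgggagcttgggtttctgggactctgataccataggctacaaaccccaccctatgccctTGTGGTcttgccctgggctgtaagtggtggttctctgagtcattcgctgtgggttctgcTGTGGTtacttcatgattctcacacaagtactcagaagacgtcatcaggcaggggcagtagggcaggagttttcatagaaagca

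A promoter entry was given for 9 of the 10 genes, all but Klrd1. The T-box core was found in 2 of them, Nkg7 and Gzmk, starting 13 and 75 bases before the transcription start, and it occurs in 3.98% of 32851 promoters of the same length. The RUNX core was found in 6 of them, Gzma, Gzmb, Nkg7, Prf1, Klrk1 and Ncr1, and it occurs in 16.8% of all promoters. These matches describe letters only, and neither core was sought outside the 300-base window. Gzma and Gzmk lie on chromosome 13 of GRCm38 with 70.6 kb between them, on the same strand, at 113093825 to 113100981 and 113171608 to 113225908. The RefSeq start used for Gzmk lies inside the longer gene span of the deposited table.

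Per length of transcript (deposited FPKM), Gzma had the highest group mean of the 10 genes in every group. Its mean was 153 ± 249 FPKM (SD, n = 3) in water, 53 ± 50.5 in progressing and 57.7 ± 2.25 in regressing tumours. In water the order of mean FPKM went on with Nkg7 (69.4 ± 89.2), Gzmk (47 ± 79.9), Klrd1 (23.6 ± 17.3), Eomes (6.82 ± 4.26), Gzmb (6.02 ± 5.27), Prf1 (1.74 ± 1.37), Klrk1 (1.51 ± 0.745), Ifng (1.21 ± 0.587) and Ncr1 (0.13 ± 0.154). Neighbours in this order differed by less than the larger of their SDs, apart from Ifng and Ncr1, and the top place rested on water replicate 2 (Gzma 441 FPKM). In water replicate 1, Klrd1 led with 30.2 FPKM, and in water replicate 3, Nkg7 led with 19 FPKM. In regressing tumours Gzma was followed by Nkg7 (12.8 ± 2.89) and Klrd1 (5.35 ± 1.8), each apart from its neighbours by more than their SDs. In progressing tumours no gene but Gzma exceeded a mean of 1.04 FPKM, the level of Prf1.

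**Figure D1:**
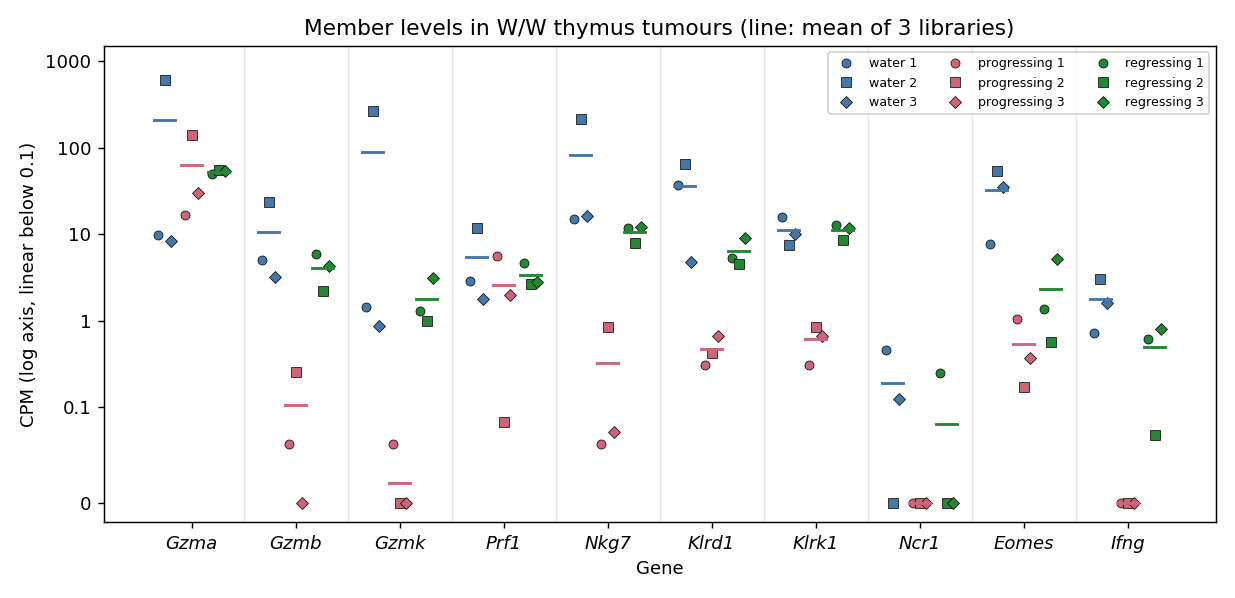
Level of each of the 10 genes in the 9 W/W libraries, as TMM-scaled CPM on an axis that is logarithmic above 0.1 and linear below it; points are libraries and lines are group means. Progressing tumours (red) lie below every water and regressing library for Gzmb, Gzmk, Nkg7, Klrd1, Klrk1 and Ifng, but not for Gzma or Prf1.

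Nkg7, a membrane protein of cytotoxic granules (ENSMUSG00000004612, chromosome 7, 43437073 to 43438249), was nearly absent from progressing tumours. Its level was 14.8, 216 and 16 CPM in water, 0.0617, 0.845 and 0.0735 CPM in progressing and 11.9, 7.91 and 12.1 CPM in regressing tumours, where the progressing values rest on 1, 10 and 1 reads. The 3 groups did not overlap for this gene. Nkg7 was lower in progressing than in water tumours by edgeR's quasi-likelihood test (log2 change -8.03, SE 1.38, adjusted p = 0.00724). It was higher in regressing than in progressing tumours (log2 change 5.08, SE 1.26, adjusted p = 0.0305). Against water, the regressing tumours gave a log2 fold change of -2.95 (SE 1.05, adjusted p = 0.0998), which did not pass the threshold of 0.05. With water replicate 2 left out this change was -0.444 (adjusted p = 0.772).

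Gzmb, the granzyme that activates caspases in target cells (ENSMUSG00000015437, chromosome 14, 56258838 to 56262260), followed the same order. It stood at 5.03, 23.7 and 3.15 CPM in water, at 0.0617, 0.254 and 0 CPM in progressing and at 5.82, 2.19 and 4.22 CPM in regressing tumours. The progressing libraries held 4 reads of Gzmb together and overlapped neither other group, while water and regressing libraries overlapped. Gzmb was lower in progressing than in water tumours (log2 change -6.62, SE 1.21, adjusted p = 0.00906) and was higher in regressing than in progressing tumours (5.24, SE 1.16, adjusted p = 0.0221). Between regressing and water tumours the difference was -1.38 (SE 0.9, adjusted p = 0.341).

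Gzmk, a tryptase-like granzyme (ENSMUSG00000042385), was dominated by a single library. It reached 265 CPM in water replicate 2, against 1.42 and 0.864 CPM in water replicates 1 and 3 and 1.3, 0.988 and 3.1 CPM in regressing tumours. The 3 progressing libraries held 1 Gzmk read in all, while the water libraries held 3510. Gzmk was lower in progressing than in water tumours (adjusted p = 0.0209), with a pooled count ratio of water to progressing of 3260 (exact 95% interval 585 to 129000, covering counting error only). This call was lost without progressing replicate 1, 2 or 3 and with limma-voom (adjusted p = 0.187). The ratio of regressing to progressing was 75.1 (13.1 to 3000), with no overlap between the groups, but the test did not pass (adjusted p = 0.15). The fitted change between regressing and water tumours was -5.63 (SE 1.81, adjusted p = 0.0775), and without water replicate 2 it was 0.72 (adjusted p = 0.653). It was called without water replicate 1 (adjusted p = 0.0457) or 3 (adjusted p = 0.0389).

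Prf1, the pore-forming perforin (ENSMUSG00000037202, chromosome 10, 61297833 to 61304680), did not separate the groups. It was measured at 2.9, 11.7 and 1.79 CPM in water, 5.61, 0.0845 and 1.98 CPM in progressing and 4.64, 2.61 and 2.77 CPM in regressing tumours. Progressing replicate 2 was the low value, with 1 read, and progressing replicate 1 exceeded every regressing library. The fitted changes were -1.08 (SE 1.07, adjusted p = 0.553) for progressing against water, 0.37 (SE 1.07, adjusted p = 0.835) for regressing against progressing and -0.7 (SE 1.06, adjusted p = 0.698) for regressing against water.

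Gzma, the most abundant granzyme of these tissues and a tryptase-like protease (ENSMUSG00000023132), differed from the other granule genes. It stood at 9.8, 609 and 8.21 CPM in water, 16.7, 141 and 29.9 CPM in progressing and 49.7, 54.8 and 53.9 CPM in regressing tumours. All 3 progressing libraries therefore lay above water replicates 1 and 3, and the regressing libraries lay close together between the extremes of the other groups. None of the fitted changes passed the test: -1.74 (SE 1.35, adjusted p = 0.434) for progressing against water, -1.98 (SE 1.36, adjusted p = 0.364) for regressing against water and -0.24 (SE 1.31, adjusted p = 0.916) for regressing against progressing. Without water replicate 2 the direction against water turned, to 2.77 (adjusted p = 0.0502) in progressing and 2.63 (adjusted p = 0.0962) in regressing tumours. The sign of regressing against progressing also turned without TMM scaling, to 0.12 (adjusted p = 0.96).

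Klrd1 encodes CD94, the chain shared by the NKG2A and NKG2C receptors (ENSMUSG00000030165, chromosome 6, 129591782 to 129598775). Its level was 37.3, 64.5 and 4.69 CPM in water, 0.308, 0.423 and 0.662 CPM in progressing and 5.32, 4.52 and 9.03 CPM in regressing tumours. Every progressing library was below every other library, and the lowest water library lay within the regressing range. Klrd1 was lower in progressing than in water tumours (log2 change -6.24, SE 0.95, adjusted p = 0.00459) and was higher in regressing than in progressing tumours (3.74, SE 0.86, adjusted p = 0.0251). For regressing against water the change was -2.49 (SE 0.78, adjusted p = 0.0722). It was called without water replicate 3 (adjusted p = 0.0211), but without water replicate 2 it was -1.68 (adjusted p = 0.234).

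Klrk1 encodes NKG2D, the activating receptor for stress-induced ligands (ENSMUSG00000030149, chromosome 6, 129610323 to 129623864), and its fitted changes had the smallest standard errors of the 9 tested genes. It stood at 15.6, 7.48 and 10.1 CPM in water, 0.308, 0.845 and 0.662 CPM in progressing and 12.6, 8.61 and 11.9 CPM in regressing tumours. Regressing tumours thus lay within the water range, and progressing tumours lay far below both. Klrk1 was lower in progressing than in water tumours (log2 change -4.19, SE 0.61, adjusted p = 0.00371) and was higher in regressing than in progressing tumours (4.18, SE 0.61, adjusted p = 0.00924). Regressing against water gave 0.00 (SE 0.52, adjusted p = 0.998). Both calls were made under each of the 14 alternative settings tried, and no other gene of the set kept its call between regressing and progressing tumours in all of them.

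Ncr1, the NKp46 receptor carried mainly by NK cells and other innate lymphocytes (ENSMUSG00000062524, chromosome 7, 4337724 to 4345164), was too low to test. It had 7, 0 and 2 reads in water, 4, 0 and 0 in regressing and none in the 3 progressing libraries. A count of 0 allows up to 3 reads, which is 0.185 to 0.254 CPM in each progressing library taken alone. The water mean of 0.192 CPM rested on 9 reads, 7 of them in replicate 1, and the difference was not tested. The other 9 genes passed the filter on low counts in the W/W table, and Ifng and Gzmk had at most 1 read in each progressing library.

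Eomes (ENSMUSG00000032446, chromosome 9, 118478212 to 118486132) was low in both ATO groups. It was measured at 7.61, 53.1 and 35.3 CPM in water, 1.05, 0.169 and 0.368 CPM in progressing and 1.36, 0.565 and 5.08 CPM in regressing tumours. All 6 ATO libraries were below all 3 water libraries, and the ATO groups overlapped. Eomes fell against water in progressing (log2 change -5.87, SE 1.11, adjusted p = 0.0105) and in regressing tumours (-3.77, SE 0.99, adjusted p = 0.0451), and the difference between the ATO groups did not pass (2.09, SE 0.98, adjusted p = 0.168). The call in regressing tumours was lost in 8 of 14 alternatives, among them leaving out water replicate 2, water replicate 3, regressing replicate 1 or regressing replicate 2. The Eomes exons share 118 of 4155 bases with the antisense gene Gm33460, which had 40 reads or fewer in each library.

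Ifng (ENSMUSG00000055170, chromosome 10, 118441046 to 118445892) had 11, 40 and 26 reads in water, none in the 3 progressing libraries and 10, 1 and 12 in regressing tumours. These are 0.709, 3.05 and 1.61 CPM in water and 0.619, 0.0706 and 0.791 CPM in regressing tumours. The progressing libraries were at 0, and each other library had at least 1 read. Its exons share 336 of 1295 bases with Gm49751 on the same strand, which had 3 reads or fewer in each library. Taking 3 reads per library as the floor, Ifng was at least 8.15-fold lower in progressing than in water tumours (adjusted p = 0.0183) and at least 2.25-fold higher in regressing than in progressing tumours (adjusted p = 0.0466). Both bounds compare a group mean with this floor, and regressing replicate 2, with 1 read, lay below it. The first call was lost without progressing replicate 3 (adjusted p = 0.0555) and the second without each library of either ATO group in turn. Regressing against water gave -1.83 (SE 0.97, adjusted p = 0.255).

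In all, 7 of the 9 tested genes fell in progressing tumours against water, where 7.13% of all tested genes were called lower. The 7 were Gzmb, Gzmk, Nkg7, Klrd1, Klrk1, Eomes and Ifng, and the same 7 were called without water replicate 2. All 7 had too few reads in progressing tumours to pass the filter on low counts there. They passed it through the other groups, so these counts and medians rest in part on that filter. Without the filter the same 7 were called. Between regressing and progressing tumours 5 of 9 were higher, against 6.45% of all tested genes called higher. Between regressing and water tumours 1 of 9 was called, in the lower direction, against 4.57% of all tested genes. By edgeR 4 of 9 had an unadjusted p under 0.05 there, and DESeq2 called 2, Klrd1 and Eomes. Without water replicate 2 edgeR called 0, with 2 at an unadjusted p under 0.05. The median fitted log2 change over the 9 genes was -6.24 for progressing against water (-5.87 with Ifng at its bound), 4.18 for regressing against progressing (3.74 with Ifng at its bound) and -1.98 for regressing against water. Over all tested genes these medians were -0.04, -0.07 and -0.11. The comparisons share libraries, so their values are given side by side and are not independent.

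**Figure D2:**
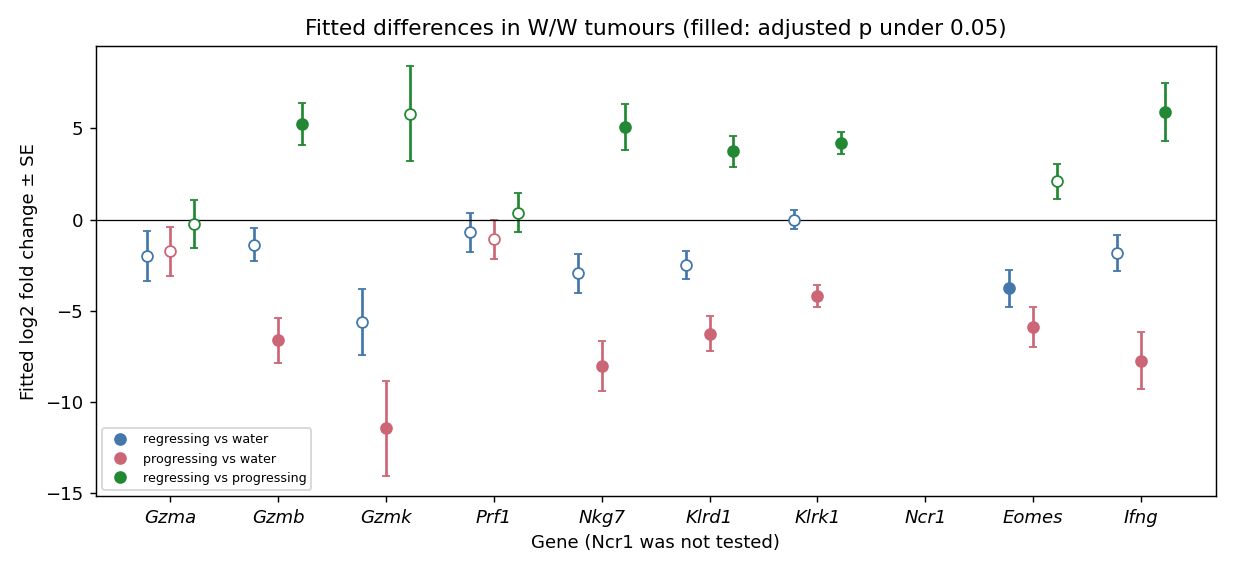
Fitted log2 fold change with its standard error for the 9 tested genes in the 3 comparisons of W/W tumours; filled points have an adjusted p under 0.05. Klrk1 stands at -4.19 in progressing tumours and at 0.00 in regressing tumours against water, whereas Gzma and Prf1 have no filled point.

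Leaving out single libraries changed the calls between regressing and progressing tumours. With 1 of those 6 libraries left out, 1 to 3 of the 9 genes were called in place of 5, and over all genes 177 to 2000 in place of 2289. Gzmb and Nkg7 lost this call without progressing replicate 1 or 3 or any regressing replicate, and Klrd1 and Ifng lost it without each of the 6. For progressing against water, leaving out 1 library gave 5 to 7 calls. Gzmb, Klrd1, Klrk1 and Eomes were called lower in progressing tumours under each of the 14 alternatives.

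Gzma made up a different share of the set in each group. Of the summed FPKM of the 10 genes, Gzma accounted for 14.9%, 54% and 18.5% in water, 85.3%, 98.9% and 95.1% in progressing and 64.9%, 76.4% and 64% in regressing tumours. The groups did not overlap in this share. The other 9 genes summed to 85.8, 645 and 73.6 CPM in water, 7.46, 2.62 and 3.75 CPM in progressing and 43.8, 27.5 and 49.1 CPM in regressing tumours, again without overlap. Progressing replicate 2 had the lowest sum of the other genes and the second highest Gzma level of the 9 libraries.

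**Figure D3:**
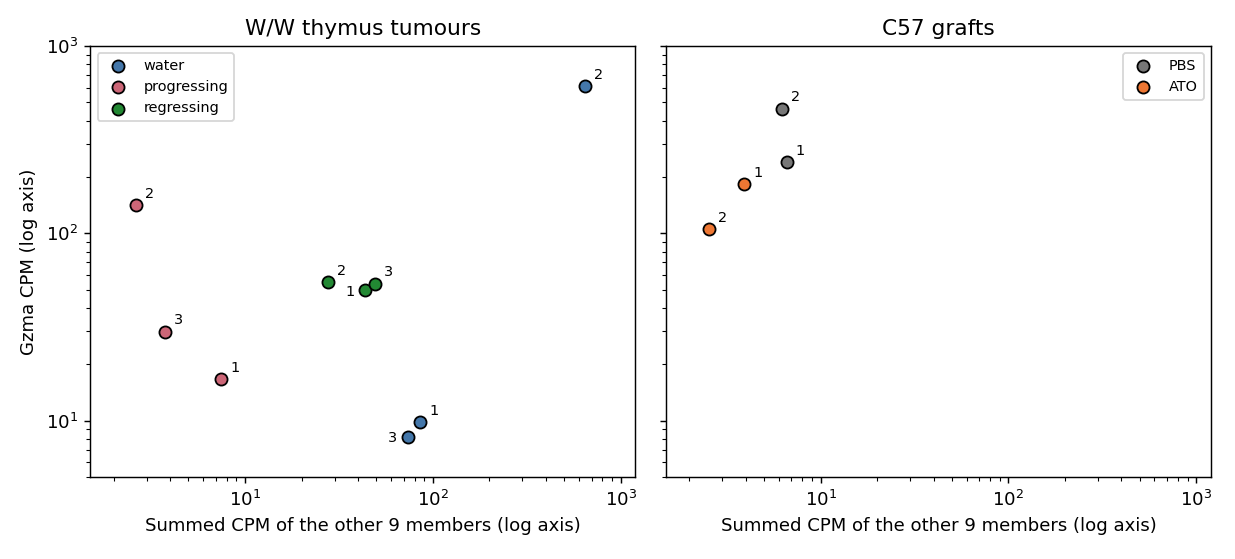
Gzma CPM against the summed CPM of the other 9 genes, each point a library labelled with its replicate number, both axes logarithmic, for W/W tumours (left) and C57 grafts (right). Progressing tumours and grafts lie at the left, with sums of 2.56 to 7.46 CPM, and span 16.7 to 463 CPM in Gzma.

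Some other genes of the cytotoxic pathway were low in progressing tumours too. Of 11 tested genes of granule cargo and release, 5 fell in progressing tumours against water, 2 were higher in regressing than in progressing tumours and 1 fell in regressing tumours against water. With water replicate 2 left out, 12 were tested, and 2 fell in progressing and 0 in regressing tumours against water. Over all 19264 genes tested there, 1568 and 376 fell. Ctsw, a cathepsin of cytotoxic lymphocytes, averaged 72 ± 27.1 CPM (SD, n = 3) in water, 1.98 ± 1.29 in progressing and 18.1 ± 3.16 in regressing tumours. It fell in progressing tumours (log2 change -5.18, SE 0.61, adjusted p = 0.00158) and was higher in regressing than in progressing tumours (3.19, SE 0.56, adjusted p = 0.0128), a call lost without regressing replicate 1. Serpinb9, an inhibitor of granzyme B, fell in progressing tumours by 2.99 on the log2 scale (adjusted p = 0.00745). The falls of Ctsw and Serpinb9 against water were called with each library left out in turn. Those of Srgn, Ctsc and Stx11 were each lost without water replicate 2 or progressing replicate 3, among others. The median fitted change of the list was -1.92 for progressing against water and 0.66 for regressing against progressing. Over all tested genes 7.13% were called lower in progressing tumours against water and 4.57% lower in regressing tumours against water. In regressing against progressing tumours 6.45% were called higher.

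Of 20 tested NK receptors and adaptors, 9 fell in progressing tumours against water, 6 were higher in regressing than in progressing tumours, and 1 fell in regressing tumours against water. The list medians were -4.26 (-3.87 with genes at 0 at their bound), 2.14 and -1.39. In the same order 7.13%, 6.45% and 4.57% of all tested genes were called in those directions, so the 1 that fell in regressing tumours was near the share over all genes. With water replicate 2 left out, 7 of 20 fell in progressing and 1 in regressing tumours against water. The list medians were then -2.89 and -0.09, and 1568 and 376 of all 19264 tested genes fell. Klrc1, which encodes NKG2A and pairs with Klrd1, had 1043 reads in water, 1 in progressing and 153 in regressing tumours. The count ratio of water to progressing was 970 (174 to 38300, counting error only, adjusted p = 0.00759), and that of regressing to progressing was 140 (24.8 to 5570, adjusted p = 0.0276). The first of these calls held with each library left out in turn, and the second was lost without each of the 6 in turn. Klrb1c, which encodes NK1.1, had 192, 3 and 235 reads in water, progressing and regressing tumours. Its ratio of regressing to progressing was 71.7 (24.2 to 350, adjusted p = 0.011), and the call held with each library left out in turn. Cd226, an activating receptor also carried by T cells, fell in progressing tumours against water by 6.64 on the log2 scale (SE 1.15, adjusted p = 0.00745). The Klra and Klrb1 genes are families of close copies, so reads could have been split among them by the counting. Klra1 and Klra9 had 0 reads in progressing tumours and passed the filter on low counts through the other groups.

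H2-T23 (Qa-1), the ligand recognised by the heterodimer of Klrd1 and Klrc1, was likewise low in progressing tumours. It averaged 240 ± 36.2 CPM in water, 48.8 ± 30.8 in progressing and 235 ± 31.5 in regressing tumours. H2-T23 was lower in progressing than in water tumours (log2 change -2.3, SE 0.47, adjusted p = 0.0131) and was higher in regressing than in progressing tumours (2.27, SE 0.46, adjusted p = 0.019), the second call being lost without regressing replicate 1 or 2. It was the 1 called gene in each of those comparisons among 3 tested ligands of the NK receptors. Of all tested genes, 7.13% were called lower in progressing tumours against water and 6.45% higher in regressing than in progressing tumours. The list medians were -1.47 for progressing against water and -0.95 for regressing against progressing. The other tested ligands were thus fitted lower in regressing than in progressing tumours, opposite to H2-T23. Without progressing replicate 2, 5 ligands were tested, and 1 was called higher and 1 lower in each of these comparisons. Of all 19129 genes tested there, 854 were called higher and 982 lower in progressing tumours against water. Between regressing and progressing tumours these numbers were 773 and 589.

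Among 18 regulators and cytokine signalling genes of cytotoxic cells, 9 fell and 1 rose in progressing tumours against water, 4 were higher in regressing than in progressing tumours, and 1 rose in regressing tumours against water. The chains of the interleukin-18 receptor were among those that fell. Il18r1 averaged 69.6 ± 38.9 CPM in water, 0.617 ± 0.386 in progressing and 17.4 ± 9.72 in regressing tumours, with changes of -6.83 (SE 0.8, adjusted p = 0.00157) for progressing against water and 4.83 (SE 0.74, adjusted p = 0.00924) for regressing against progressing. Il18rap fell by 5.12 on the log2 scale in progressing tumours (adjusted p = 0.00745). Il12rb2, a chain of the interleukin-12 receptor, went the other way and was higher than in water in both ATO groups, by 2.85 in progressing (adjusted p = 0.0143) and 2.56 in regressing tumours (adjusted p = 0.0302). The call in progressing tumours was lost without progressing replicate 3, and that in regressing tumours without water replicate 1 or 3 or any regressing replicate. The list medians were -2 for progressing against water, 0.74 for regressing against progressing and -1.09 for regressing against water. Of all 18119 tested genes, 865 were called higher than in water in progressing and 568 in regressing tumours. Those called lower in progressing tumours against water made up 7.13%, and those higher in regressing than in progressing tumours 6.45%. With water replicate 2 left out, 10 of the 18 listed genes fell and 1 rose in progressing tumours against water. Over all 19264 genes tested there, 1568 fell and 989 rose. In regressing tumours against water 0 of the 18 fell and 1 rose, beside 376 and 378 over all genes.

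Genes of the interferon-gamma response were called in both comparisons with progressing tumours. Of 16 tested receptor and target genes, 7 fell in progressing tumours against water and 7 were higher in regressing than in progressing tumours. Against water, 1 rose in regressing tumours. Over all tested genes 7.13% were called lower in progressing tumours against water and 6.45% higher in regressing than in progressing tumours. Against water, 568 of 18119 rose in regressing tumours. Iigp1, an interferon-induced GTPase, averaged 54.6 ± 17.5 CPM in water, 3.88 ± 0.674 in progressing and 60.1 ± 31.6 in regressing tumours. Its changes were -3.81 (SE 0.48, adjusted p = 0.00212) for progressing against water and 3.95 (SE 0.48, adjusted p = 0.00647) for regressing against progressing, and both were called with each library left out in turn. Socs1, a feedback inhibitor of this pathway, rose in regressing tumours against water by 2.14 (adjusted p = 0.0298), a call lost without water replicate 1 or 2 or regressing replicate 1 or 2. The list medians were -1.55, 1.88 and 0.16 for progressing against water, regressing against progressing and regressing against water. With water replicate 2 left out, 6 of the 16 fell and 1 rose in progressing tumours against water. Over all 19264 genes tested there, 1568 fell and 989 rose.

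**Figure D4:**
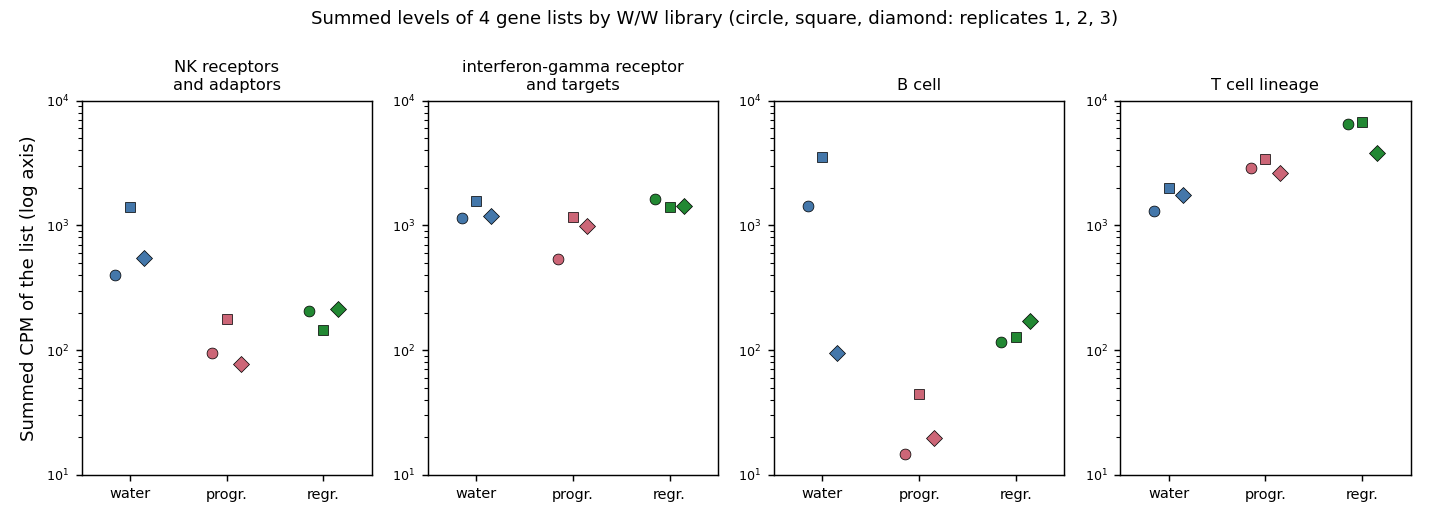
Summed CPM of 4 gene lists in each W/W library on logarithmic axes (circle, square and diamond for replicates 1, 2 and 3; blue water, red progressing, green regressing). NK receptors gave 78 to 177 CPM in progressing and 144 to 214 CPM in regressing tumours, with overlap, and T cell lineage genes gave 1300 to 1990 CPM in water, 2610 to 3380 in progressing and 3780 to 6770 in regressing tumours.

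Markers of other cell types also differed between the W/W groups, in differing directions. Of all 18119 tested genes, 865 were called higher and 1292 lower in progressing tumours against water. In regressing tumours against water these numbers were 568 and 828, and in regressing against progressing tumours they were 1169 and 1120. All 7 B cell markers fell in progressing tumours against water (median -6.66, and 7 of 7 without water replicate 2), and 3 of 7 were higher in regressing than in progressing tumours (1 of 7 without progressing replicate 2). The 7 thymic epithelium markers summed to 98.9 to 847 CPM in water, 26.2 to 81.9 in progressing and 1150 to 1340 in regressing tumours, and 5 of 7 were higher in regressing than in progressing tumours. The 7 markers of double-positive thymocytes, the developing T cells that carry both CD4 and CD8, summed to 53.7 to 254 CPM in water, 1220 to 2360 in progressing and 3020 to 6170 in regressing tumours. Of these, 5 and 7 were higher than in water in progressing and regressing tumours, and edgeR called 0 of 7 between the ATO groups, with 3 at an unadjusted p under 0.05. Macrophage markers summed to 1740 to 2500 CPM in water, 310 to 1450 in progressing and 536 to 970 in regressing tumours, with 1 of 8 lower in progressing tumours against water, a call lost without water replicate 2. Fibroblast markers summed to 316 to 918 CPM in water, 771 to 1310 in progressing and 123 to 423 in regressing tumours, with 3 of 6 lower in regressing than in progressing tumours and 3 of 6 lower in regressing than in water tumours. No gene of these 5 lists was at 0 in every library of a W/W group. The mitochondrial share of counts was 2.55%, 3.79% and 2.75% in water, 4.7%, 8.83% and 4.86% in progressing and 2.08%, 2.96% and 8.48% in regressing tumours, so the progressing libraries lay above all water libraries and overlapped the regressing ones. The part of these cell types and of the mitochondrial share in the differences of the 10 genes was not tested.

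Genes outside the set whose levels were among the most like the mean of its tested genes across the 9 W/W libraries were Slc27a3 (r = 0.992, rho = 0.933), Klrc1 (r = 0.992, rho = 0.979), Igkv19-93 (r = 0.977, rho = 0.8) and Ell2 (r = 0.976, rho = 1). They were ranked among 16354 genes by Pearson's r of log2 CPM, as a description only, since the libraries fall into 3 groups and share water replicate 2 as the highest point. Igkv19-93, an immunoglobulin light chain segment of B lineage cells, ranged from 55 to 1630 CPM in water, from 0.0617 to 0.169 in progressing and from 9.96 to 31.3 in regressing tumours.

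In the grafts Gzma was again the main transcript of the set, and ATO tumours had less of it. It stood at 240 and 463 CPM after PBS and at 184 and 105 CPM after ATO, without overlap, and it fell by 1.28 on the log2 scale (SE 0.32, adjusted p = 0.026). The call was lost without PBS replicate 2 (adjusted p = 0.111). Gzma accounted for 98.6% and 99.2% of the summed FPKM of the 10 genes after PBS and for 99% in each ATO library.

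The remaining genes did not exceed 3.93 CPM in the grafts, the level of Prf1 in PBS replicate 1, and most were near the floor. Nkg7 had 15 and 24 reads after PBS and 2 and 1 after ATO, which are 1.09 and 1.61 against 0.148 and 0.0658 CPM. It fell with ATO (adjusted p = 0.0194), with a count ratio of PBS to ATO of 13.1 (4.15 to 66.1, counting error only), and the call was lost without PBS replicate 1, PBS replicate 2 or ATO replicate 2. Eomes gave 0.801 and 0.873 CPM after PBS and 0.0738 and 0.263 CPM after ATO, without overlap, at a log2 fold change of -2.22 (SE 0.82, adjusted p = 0.0885). Prf1 gave 3.93 and 2.55 CPM after PBS and 2.51 and 2.1 CPM after ATO, where the ATO values were the lower ones by less than the spread of the PBS values (-0.49, SE 0.49, adjusted p = 0.529). These 4 genes were the ones tested, and 2 of 4 were called lower, where 6.57% of all tested genes were called lower. Their median fitted change was -1.75, against 0.04 over all tested genes. Nkg7 and Eomes passed the filter on low counts only through the PBS libraries, where they were higher. This count and this median therefore rest in part on genes picked by their higher group. Without the filter, Gzma and Nkg7 were again the genes called.

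The other 6 genes did not pass the filter in the grafts. Gzmb had 0 and 3 reads after PBS and 2 and 0 after ATO, Gzmk 2 and 4 against 0 and 1, and Ifng 2 and 2 against 1 and 0. Klrd1 had 5 and 5 reads after PBS and 9 and 1 after ATO, and Klrk1 had 2 and 4 against 4 and 0. Ncr1 had none in any graft library. Differences at these counts were not detectable at this depth.

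**Figure D5:**
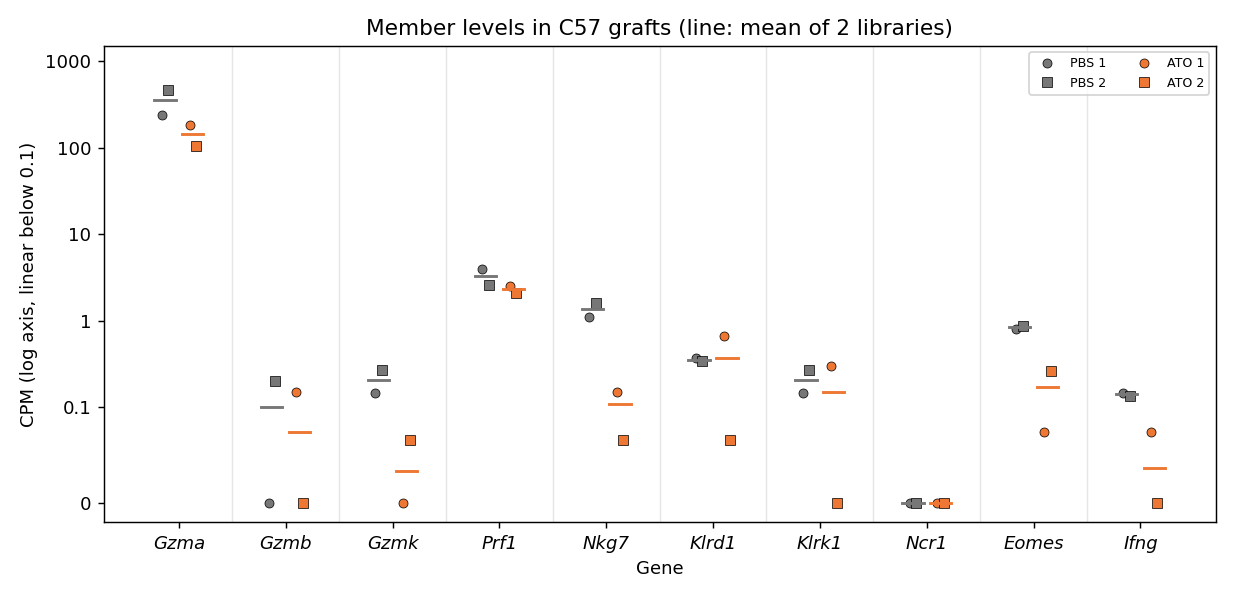
Level of each of the 10 genes in the 4 graft libraries, as TMM-scaled CPM on an axis that is logarithmic above 0.1 and linear below it; points are libraries and lines are group means. Gzma lies at 105 to 463 CPM while no other gene exceeds 3.93 CPM.

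Few pathway genes passed the test in the grafts, where 6.57% of all tested genes were called lower and 1140 of 15468 higher. In the granule cargo list 1 of 10 fell, Srgn, the proteoglycan core of granules (-0.84, adjusted p = 0.037, lost without PBS replicate 1, PBS replicate 2 or ATO replicate 1). Among NK receptors and adaptors 1 of 9 fell, Tyrobp (DAP12), an adaptor also used by myeloid cells (-1.18, adjusted p = 0.0329, lost without PBS replicate 1 or ATO replicate 2). Among regulators 1 of 13 fell, Id2 (-1.17, adjusted p = 0.036, lost without PBS replicate 2 or ATO replicate 2). Of the 16 interferon-gamma genes and the 3 ligands edgeR called 0, with 0 and 1 at an unadjusted p under 0.05. Macrophage markers summed to 683 to 906 CPM after PBS and 347 to 402 CPM after ATO, with 4 of 8 lower. Fibroblast markers summed to 212 to 469 CPM after PBS and 602 to 1630 CPM after ATO, with 4 of 6 higher, and the mitochondrial share of counts was 0.521% and 1.02% after PBS against 5.98% and 4.03% after ATO. T cell lineage genes summed to 5260 to 6310 CPM after PBS and 3440 to 4260 CPM after ATO, with 1 of 9 higher and 1 lower. The part of these in the fall of Gzma and Nkg7 was not tested.

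The W/W and graft tables were normalized separately, so levels were not tested between them. Side by side, the sum of the 9 genes other than Gzma was 2.56 to 6.62 CPM in the grafts and 2.62 to 7.46 CPM in progressing tumours, whereas it was 27.5 CPM or more in every other W/W library.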

How the data were processed

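Per the labels' protocols, TRIzol total RNA was made into SMARTer mRNA-Seq libraries. The same text holds a culture passage that does not describe these tissues. The submitters' processing notes name FastQC 0.10.1, cutadapt 1.9.1 and HISAT2 2.0.1, with no role, and GRCm38. How reads were counted per gene, whether by strand, and on which annotation release is not given in the sources used here. Raw counts as deposited by the authors were tested. The FPKM values the authors deposited beside them were used only to compare levels between genes. Gene coordinates of the W/W table match GRCm38 for 99.4% of genes. The graft table uses another mouse build, so none of its coordinates are given. Entries without a symbol numbered 2639 among the grafts' genes.

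Counts were tested in R 4.3.3 with edgeR 4.0.16 (filterByExpr with a minimum count of 10, TMM, quasi-likelihood test, Benjamini-Hochberg adjustment over 18119 W/W or 15468 graft genes, threshold 0.05). The 9 W/W libraries were fitted as 3 groups and the 4 graft libraries alone. Standard errors are the absolute log2 change over the root of F. Ratios of pooled counts carry exact Clopper-Pearson 95% intervals. Intervals and floors of 3 counts cover counting error only. Alternatives were other size factors, no filter, DESeq2 1.42.0, limma-voom (limma 3.58.1), a replicate block, only the compared groups, and each library left out. On simulated data the W/W fit of regressing against water recovered 54.1% of genes changed by 3 on the log2 scale and 1.03% of those changed by 1 (17649 genes). The graft fit recovered 96.9% and 28.1% (15013 genes). The genes, the lists and the rule for naming list genes (up to 3 called genes of smallest adjusted p per list and comparison) were chosen with earlier results of these data known. Not every gene the rule allows is named, and some are not reported here. The human U937 samples were not used.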

Additional observations from a re-analysis of the deposited data

Results flagged for a closer look

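The change against water differed between the ATO outcomes for 5 genes, tested directly as regressing against progressing, in which the water level cancels. The difference was 5.24 on the log2 scale for Gzmb, 5.08 for Nkg7, 3.74 for Klrd1, 4.18 for Klrk1 and 5.89 for Ifng, each with an adjusted p under 0.05 by edgeR. Of all tested genes, 6.45% were called higher. Each of the 5 was higher in 3 of 3 regressing libraries than in every progressing library, and the share of all genes that did so was not counted. When 1 library was left out, 1 to 3 genes were called, and the Klrd1 and Ifng calls were lost in each such fit. The value for Ifng depends on the prior count, since its progressing libraries are at 0. Its bound of at least 2.25-fold compares the regressing mean with the floor and covers counting error only. It does not hold for regressing replicate 2, which had 1 Ifng read (0.0706 CPM), fewer than the 3 reads of the floor. Groups of 2 or 3 libraries were not searched for single outlying values.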

How the results depend on the processing

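Over all settings 32 fitted changes turned sign, none of them a change called in the results above. Gzma for regressing against water was called in opposite directions by 2 settings, lower without the filter (-1.85, adjusted p = 0.0492) and higher without the 2 libraries named next. Without water replicate 2 and progressing replicate 2, the libraries of lowest TMM factor and also those highest in Gzma within their groups (chosen after seeing the data), Gzma was 2.63 (adjusted p = 0.0113), 1.38 (0.0326) and 1.25 (0.0307) for regressing against water, progressing against water and regressing against progressing. Prf1 was 0.60, 0.71 and -0.11 there, and for regressing against water Gzmb was 0.0794 and Gzmk 0.71. With limma-voom Gzma was 0.63, 0.22 and 0.41, and without TMM 0.12 between ATO groups. Klrk1, fitted at 0.00 for regressing against water, was 0.0437 with DESeq2 size factors, 0.155 without TMM, 0.0982 without the filter, 0.0462 with DESeq2, 0.0372 with limma-voom and 0.0784 with only the compared groups. Leaving out 1 library gave ranges of -2.55 to 2.63, -3.08 to 2.77 and -0.69 to 1.21 for Gzma, -1.12 to 0.59, -2.38 to 0.18 and -0.15 to 1.67 for Prf1, and for regressing against water -1.82 to 0.0777 for Gzmb, -6.21 to 0.72 for Gzmk and -0.14 to 0.33 for Klrk1. The cause was not tested.

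For regressing against water the count of 1 called gene became 0 without TMM, 5 without the filter, 2 with DESeq2, 0 with only the compared groups and 0 to 2 with 1 library left out. For regressing against progressing the count of 5 became 2 with limma-voom and 1 to 3 with 1 library left out. In the grafts the count of 2 became 1 with DESeq2 and 0 to 2 with 1 library left out. For progressing against water the count of 7 ranged from 5 to 8, where the 8 include Gzma as higher. DESeq2 gave no adjusted p for Gzma, Gzmk, Nkg7 and Ncr1 in the W/W table. Where 1 graft library was left out, the lone library is assumed to vary like the other group. Over all genes DESeq2 called 3157, 3841 and 4069 for regressing against water, progressing against water and regressing against progressing, where edgeR called 1396, 2157 and 2289, and 2689, 3594 and 3621 without the filter.

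Same-numbered W/W libraries did not deviate together (r of -0.124 to 0.136 over 9 pairs), so the numbers were not treated as pairing samples. With a replicate block 0 genes were called for regressing against water, 6 for progressing against water, 4 for regressing against progressing and 1 in the grafts, beside 956, 1405, 1597 and 1350 over all genes, where the fits without the block called 1396, 2157, 2289 and 2157. The calls lost were Eomes, Gzmk (adjusted p = 0.0591), Ifng and Gzma (adjusted p = 0.0604) in that order of comparisons. Under the block Gzma was 0.58 for regressing against water and 0.91 for regressing against progressing, and Klrk1 was 0.00816 for regressing against water. A crossed pairing of the grafts, where same-numbered libraries correlated at -0.13, called 2 genes. Counts near the floor limit Ncr1 in every group, and Ifng, Gzmk and Gzmb in progressing tumours and grafts.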

Other observations

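Ifngas1, the long noncoding RNA gene beside Ifng, was counted at 30, 451 and 14 reads in water, 0, 1 and 3 in progressing and 3, 3 and 8 in regressing tumours. It was picked after its values were seen and carries no test. Its highest library was water replicate 2, the library that also led in Gzma, Gzmk, Nkg7 and B cell markers.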
